A study of Homo sapiens with 6 samples.

Results

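BHLHB9 (also named GPRASP3) and its 9 relatives GPRASP1, GPRASP2, ARMCX1 to ARMCX6 and ARMC10 were followed in HEK293 cells, a human embryonic kidney line, after disruption of ZNF507 or ZNF146. These 10 genes were taken by name from the 57773 genes of the count table. BHLHB9 was chosen by its RNA level after ZNF507 disruption in these same libraries, and the other 9 because they belong to its protein family. Its values in contrasts that use the sgZNF507 libraries are therefore a description and support nothing further.

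GASP proteins bind the tails of many G protein-coupled receptors after endocytosis and take part in sorting them towards lysosomes. They share armadillo-like repeats with the ARMCX proteins, several of which sit on the outer mitochondrial membrane and act in the movement of mitochondria, a role best known in neurons. ARMC10 is the autosomal relative from which the X-linked genes are thought to have arisen by retrotransposition in placental mammals.

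RNA was sequenced in 6 libraries, 2 of each group. The control cells (EV) received empty PX459, the plasmid that carries Cas9 and puromycin resistance, and the sgZNF146 and sgZNF507 cells received the same plasmid with 4 guides against the named zinc finger gene. All groups were transfected transiently, selected with puromycin for 36 h and grown for 2 weeks, and the cells were populations rather than clones. The EV libraries do not control for cutting by Cas9. Totals ranged from 22724439 to 28524025 counts per library, and 22010 genes with enough counts were tested with edgeR. Levels are given as CPM, counts scaled per 1e+06 of the TMM-adjusted library size, with the SD over 2 libraries.

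The targeted genes and the markers of the line were checked first. ZNF507 was measured at 71.9 and 75.4 CPM in EV, at 71.2 and 73.2 in sgZNF146 and lower in sgZNF507, at 47.2 and 48.7 (log2 fold change -0.62, SE 0.07, edgeR adjusted p = 0.00195). ZNF146 was at 115 and 105 CPM in EV, at 99.1 and 103 in sgZNF146 and at 88.3 and 101 in sgZNF507. Neither its log2 fold change of -0.13 in sgZNF146 nor that of -0.21 in sgZNF507 passed the test against EV (edgeR adjusted p = 1.00 for both). RNA level alone does not check the sgZNF146 label, and the protein and the indels at the cut sites, by which the study checked both disruptions, were not analysed here. Genes known from HEK293 cells were present in every library, among them VIM at 1011 to 1146 CPM and NEFM at 66.3 to 77.4 CPM, and 0 of the 7 matched markers passed the threshold in either contrast against EV (edgeR, with 0 and 1 at an unadjusted p under 0.05). Among markers of other cell types, the blood genes PTPRC and CD3E, ALB and MYH7 stayed at or below 0.236 CPM, PDGFRB, VWF and DCN at or below 1.34 CPM, and GFAP at or below 3.17 CPM. COL1A1, a fibroblast collagen, was at 72.9 and 66.7 CPM in sgZNF507, above the 58.8 to 63.3 CPM of the other 4 libraries (log2 fold change 0.18 against EV, unadjusted p = 0.0356 and adjusted p = 1.00 by edgeR), and its part in the results was not tested.

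The 9 X-linked members lie within 1.34 Mb of chromosome X in GRCh37, and ARMC10 lies on chromosome 7. BHLHB9 (ENSG00000198908) spans chrX:101975616-102008468 on the plus strand, 2954 bp after the end of GPRASP2 (ENSG00000158301, chrX:101967373-101972661, plus strand). GPRASP1 (ENSG00000198932) precedes GPRASP2 by 53361 bp on the same strand. ARMCX6, ARMCX3 and ARMCX2 form a second close group, with gaps of 4795 and 27433 bp.

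Readthrough transcripts run along the same strand as these genes. One annotated gene named ARMCX5-GPRASP2 (ENSG00000286237) starts in GPRASP2 and runs to the end of BHLHB9, where it shares 93.1% of the exonic bases of BHLHB9 and 7.88% of those of GPRASP2. It has no count of its own in the values used here, so reads from it cannot be told apart from reads of BHLHB9 and GPRASP2. The second gene of that name (ENSG00000271147) shares 13.6% of the exonic bases of ARMCX5 and 7.58% of those of GPRASP2, and held 83 to 113 counts per library. The strand and overlap options used to assign reads to genes are not given in the sources used here.

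BHLHB9 has 2 starts in the RefSeq promoter set, 25236 bp apart, and they are shown with the starts of its closest relatives because only one of them resembles those of GPRASP2 and GPRASP1. Each window runs 5′ to 3′ from 250 bases before the start to 50 bases after it. The sequences are credited to RefSeq (table build GRCh38.p14) and were placed by exact match to GRCh37, always on the plus strand. Capitals mark the letters CACGTG in the first window and, in the other 3, the runs of 12 or more bases that are identical in all 3 of them.
BHLHB9 start 1, chrX:101975421-101975720: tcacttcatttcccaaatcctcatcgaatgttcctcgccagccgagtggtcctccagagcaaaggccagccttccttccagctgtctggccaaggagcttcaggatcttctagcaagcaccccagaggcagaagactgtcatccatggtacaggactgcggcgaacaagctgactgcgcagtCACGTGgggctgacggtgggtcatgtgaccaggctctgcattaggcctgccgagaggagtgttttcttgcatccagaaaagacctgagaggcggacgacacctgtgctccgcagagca
BHLHB9 start 2, chrX:102000657-102000956: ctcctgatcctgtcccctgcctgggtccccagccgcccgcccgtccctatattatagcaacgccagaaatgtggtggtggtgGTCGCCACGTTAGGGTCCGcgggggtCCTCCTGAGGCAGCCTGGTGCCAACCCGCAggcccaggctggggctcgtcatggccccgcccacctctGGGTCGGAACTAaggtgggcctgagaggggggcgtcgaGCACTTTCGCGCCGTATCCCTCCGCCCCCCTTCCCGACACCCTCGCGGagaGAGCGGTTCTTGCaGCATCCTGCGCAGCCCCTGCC
GPRASP2, chrX:101967126-101967425: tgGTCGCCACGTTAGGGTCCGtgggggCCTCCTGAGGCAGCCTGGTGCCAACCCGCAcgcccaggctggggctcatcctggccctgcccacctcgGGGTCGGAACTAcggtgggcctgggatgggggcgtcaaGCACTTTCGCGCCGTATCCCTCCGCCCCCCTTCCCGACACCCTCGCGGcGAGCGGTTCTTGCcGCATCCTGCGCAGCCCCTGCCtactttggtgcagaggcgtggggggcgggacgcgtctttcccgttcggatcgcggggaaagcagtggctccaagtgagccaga
GPRASP1, chrX:101906161-101906460: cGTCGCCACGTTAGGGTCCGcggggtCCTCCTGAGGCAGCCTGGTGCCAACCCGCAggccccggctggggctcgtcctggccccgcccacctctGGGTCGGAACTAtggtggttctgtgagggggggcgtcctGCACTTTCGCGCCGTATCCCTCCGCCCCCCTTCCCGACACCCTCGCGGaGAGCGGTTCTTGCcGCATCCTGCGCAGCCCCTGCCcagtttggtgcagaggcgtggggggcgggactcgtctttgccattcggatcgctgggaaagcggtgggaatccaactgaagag

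The window at BHLHB9 start 2 was 95.4% identical to that of GPRASP1 over 216 aligned bases and 94.5% identical to that of GPRASP2 over 217 bases. GPRASP1 and GPRASP2 were 91.6% identical to each other over 296 bases. The 52 other pairs among the 11 windows of 9 members reached 63.9% to 79.0%, and BHLHB9 start 1 reached 66.3% to 76.5% against the other 10 windows. Runs shared by BHLHB9 start 2, GPRASP2 and GPRASP1 covered 143 of the 300 bases, and the longest, of 48 bases, was found in 4 of 35116 RefSeq windows, namely those of these 3 genes and of ARMCX5-GPRASP2. The counts cover whole genes, so the use of the individual starts was not measured. ARMCX3 was not among the members with a window.

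**Figure D1:**
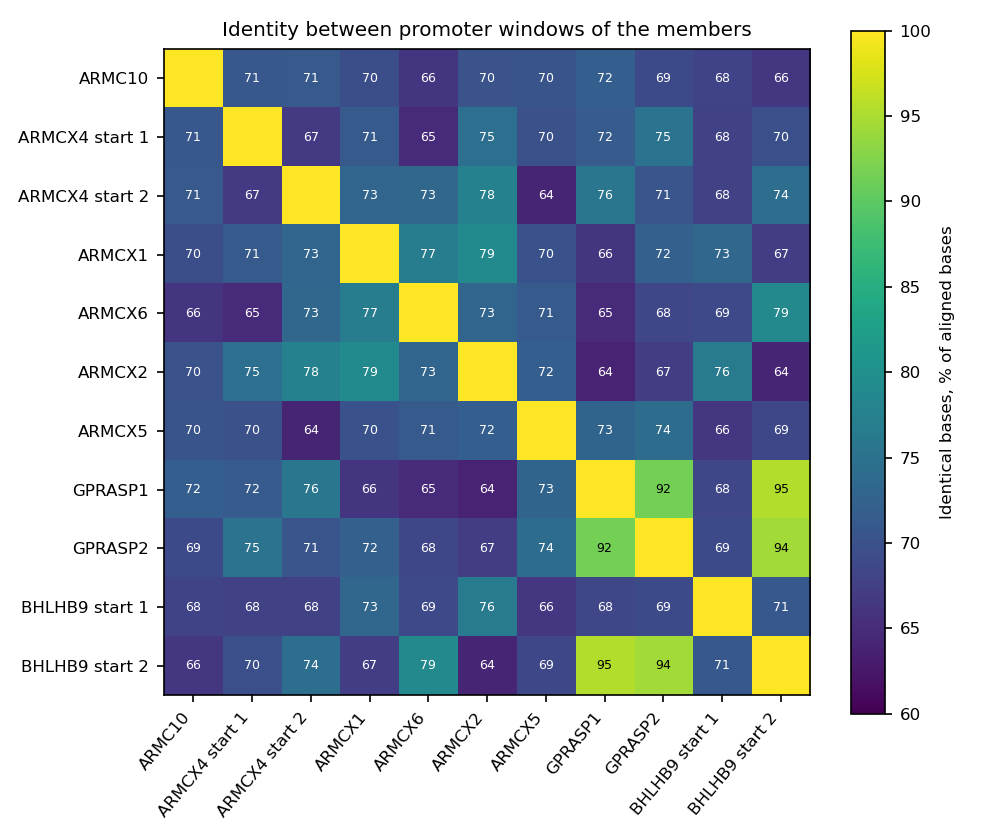
Identity between the promoter windows of the members, as the percent of aligned bases that are identical (colour and number in each cell, both axes listing the windows in genomic order with ARMC10 first). The windows of GPRASP1, GPRASP2 and BHLHB9 start 2 form a block at 91.6% to 95.4%, while every other pair is at 79.0% or less.

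Short motifs were then counted on both strands of the same windows. CACGTG, the E-box bound by several basic helix-loop-helix factors, was found in 5 of the 11 member windows and in 7.26% of all RefSeq windows. It lay at -68 from BHLHB9 start 1, at -29 in ARMCX1, at -60 in ARMCX2, at -47 from the second ARMCX4 start and at -1 in ARMCX6. In the last 4 it was part of the longer TCACGTGA, which 0.98% of all windows hold. GGGCGG was found in 5 member windows and in 45% of all, CCAAT in 5 and in 34.6%. TATAAA (11.5% of all windows) and TGACGTCA (1.85%) had no match in a member window. A match of letters is a description and not a measured binding site.

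Levels of the members in EV cells were compared per length, as CPM per kb of merged exons (RPKM). The exon lengths came from GENCODE, while the paper mapped reads with Ensembl gene models, so the lengths that were counted may differ. GPRASP2 was highest at 16.8 ± 0.993, followed by ARMCX3 at 12.02 and BHLHB9 at 5.57 ± 0.14 RPKM (SD, n = 2). ARMCX6 at 5.16, ARMC10 at 4.38 and ARMCX5 at 4.12 RPKM came next, and ARMCX2 at 1.73, ARMCX4 at 1.36 and GPRASP1 at 1.21 RPKM were lowest among the genes with counts. No neighbours in this order overlapped in the EV libraries, but the lowest BHLHB9 value of 5.474 RPKM was close to the highest ARMCX6 value of 5.465. In sgZNF146 cells the order was the same, with ARMCX4 and GPRASP1 overlapping. In sgZNF507 cells BHLHB9 moved from the third to the sixth place, at 3.28 ± 0.102 RPKM, below ARMCX6 at 5.17, ARMCX5 at 3.92 and ARMC10 at 3.91 RPKM.

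ARMCX1, which acts in mitochondrial transport in axons, was at or under the floor of 3 counts. It had 0 counts in 4 libraries, 1 in sgZNF146 replicate 1 and 3 in sgZNF507 replicate 2, where 3 counts correspond to 0.103 to 0.130 CPM depending on the library. It was not tested, which leaves 9 of the 10 members in the fit. The floor covers counting error only.

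BHLHB9, the gene the family was selected on, was lower in both sgZNF507 libraries than in any other library. It had 780 and 836 counts in EV, 788 and 714 in sgZNF146, and 408 and 536 in the sgZNF507 libraries. In CPM these were 31.3 and 30.2 in EV, 31.0 and 28.3 in sgZNF146, and 17.7 and 18.5 in sgZNF507. The sgZNF507 values lay close together and the 4 others overlapped. The mean was 18.1 ± 0.563 CPM in sgZNF507 against 30.8 ± 0.773 in EV (SD, n = 2), a log2 fold change of -0.76 (SE 0.09, 95% interval -0.97 to -0.56) or 41.1% lower. In bulk RNA, a lower level in every cell and the loss from a part of the cells cannot be told apart.

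GPRASP2, a receptor-sorting relative and the nearest upstream gene, was also lower in both sgZNF507 libraries than in the other 4. It had 1483 and 1791 counts in EV, 1669 and 1557 in sgZNF146, and 1087 and 1418 in sgZNF507. The corresponding levels were 59.5 and 64.7, 65.7 and 61.8, and 47.1 and 48.9 CPM. Its log2 fold change in sgZNF507 against EV was -0.37 (SE 0.08, 95% interval -0.54 to -0.21), 22.7% lower, and ranked 53 of the 22010 genes by p without passing the threshold (edgeR adjusted p = 0.144). GPRASP2 was called in 2 of 15 alternative settings. A fit blocked by replicate number called it (log2 fold change -0.37, edgeR adjusted p = 0.000186), and so did a fit with no filter (edgeR adjusted p = 0.00952). These fits called 121 and 101 genes in all, beside 40 in the reported fit. DESeq2 on 6 libraries did not call GPRASP2 (DESeq2 adjusted p = 0.0773).

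GPRASP1, the founding member of the GASP proteins, did not share the low level. It was measured at 8.67 and 7.77 CPM in EV, 9.17 and 8.14 in sgZNF146, and 7.72 and 8.93 in sgZNF507. The 3 groups overlapped, and the log2 fold change in sgZNF507 against EV was 0.02 (95% interval -0.28 to 0.33, edgeR adjusted p = 1.00). Adding the counts of the second ARMCX5-GPRASP2 gene, which spans GPRASP1 but shares 0% of its exonic bases, turned the sign of GPRASP1, at -0.01. The intervals of GPRASP1 and BHLHB9 did not overlap, but the difference between the genes was not tested.

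Counts of the GASP genes were also set against each other and against ARMCX3 within libraries. Counts of BHLHB9 per 100 counts of GPRASP2 were 52.6 and 46.7 in EV, 47.2 and 45.9 in sgZNF146, and 37.5 and 37.8 in sgZNF507. This ratio within a library does not depend on the scaling between libraries, and it was lowest in both sgZNF507 libraries. Ratios that hold BHLHB9 are a description there, since the gene was selected on the sgZNF507 libraries. Per 100 counts of ARMCX3, BHLHB9 held 58.5, 62.4, 59.1 and 53.4 in the EV and sgZNF146 libraries and 35.1 and 37.3 in sgZNF507. GPRASP2 per 100 ARMCX3 counts was 111, 134, 125 and 117 in the first 4 libraries and 93.5 and 98.7 in sgZNF507.

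**Figure D2:**
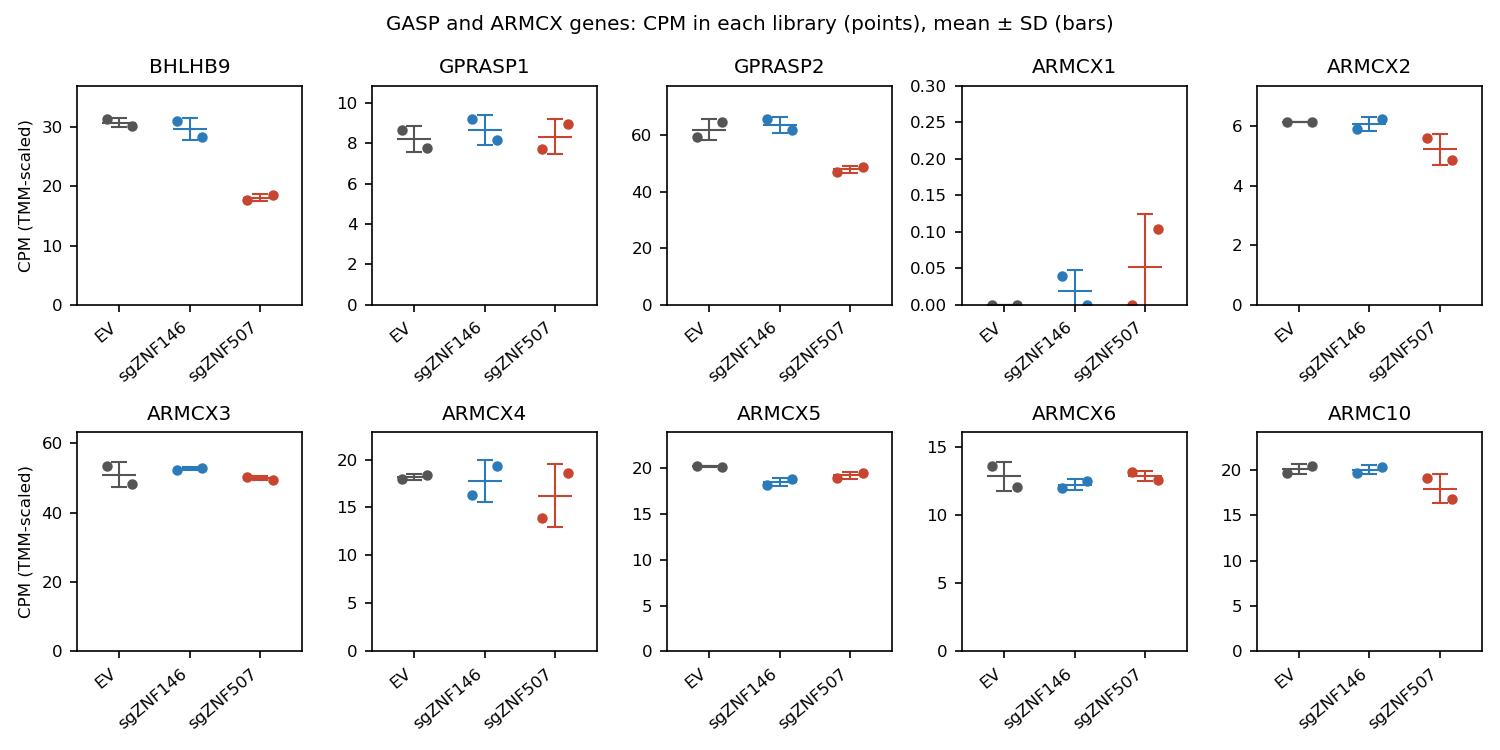
Level of each member in CPM (y axis, TMM-scaled, starting at 0 with its own range per gene) in EV, sgZNF146 and sgZNF507 (x axis). Points are the 2 libraries of a group and bars the mean ± SD. BHLHB9 at 17.7 and 18.5 CPM and GPRASP2 at 47.1 and 48.9 CPM lie below all other libraries in sgZNF507, and ARMCX1 stays at or under the floor of 3 counts.

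Among the ARMCX genes without the untested ARMCX1, 0 passed the threshold in sgZNF507 against EV (edgeR, and 0 by DESeq2 on 6 libraries). At an unadjusted p under 0.05 there were also 0 (edgeR). Over all genes these edgeR shares were 0.182% and 3.39%. ARMCX3, which links mitochondria to the motor adaptor machinery, was measured at 53.5 and 48.4 CPM in EV, 52.5 and 53.0 in sgZNF146, and 50.4 and 49.6 in sgZNF507. Its 3 groups lay within a narrow range, with a log2 fold change of -0.03 (95% interval -0.20 to 0.14). ARMCX2 was at 6.14 and 6.14 CPM in EV, 5.90 and 6.23 in sgZNF146, and 5.59 and 4.86 in sgZNF507. Both of its sgZNF507 libraries were the lowest, but the log2 fold change of -0.24 had a 95% interval of -0.56 to 0.09 and was -0.12 without sgZNF507 replicate 2.

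ARMCX4 showed the widest spread between sgZNF507 replicates, at 13.9 and 18.6 CPM, beside 17.9 and 18.4 in EV and 16.3 and 19.3 in sgZNF146. Its log2 fold change of -0.15 (95% interval -0.45 to 0.14) rested on sgZNF507 replicate 1 and was 0.03 without that library. ARMCX5 was at 20.3 and 20.2 CPM in EV, 18.2 and 18.8 in sgZNF146, and 19.0 and 19.5 in sgZNF507, with a log2 fold change of -0.07. ARMCX6 was at 13.6 and 12.1, 11.96 and 12.5, and 13.1 and 12.6 CPM in the same order, with a log2 fold change of 0.00. Counts of ARMCX6 are uncertain, since 40.4% of the 50-base stretches of its transcripts also occur in other annotated genes, including 17.9% of all its stretches in ARMCX7P.

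ARMC10, the autosomal relative, was measured at 19.7 and 20.4 CPM in EV, 19.7 and 20.3 in sgZNF146, and 19.0 and 16.8 in sgZNF507. Both sgZNF507 libraries were below the other 4, with a log2 fold change of -0.16 (95% interval -0.39 to 0.06, edgeR adjusted p = 1.00). That value was -0.26 without sgZNF507 replicate 1 and -0.063 without sgZNF507 replicate 2. Of its 50-base stretches, 15% occur in other genes, including 11.5% of all its stretches in the pseudogene ARMC10P1. In the 1 Mb on each side of ARMC10, 0 of 28 tested genes passed the threshold (edgeR), beside 0.182% of all genes. Their median log2 fold change was 0.03. At an unadjusted p under 0.05 there was 1 (edgeR), beside 3.39% of all genes.

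Over the family, 1 of the 9 tested members passed the threshold in sgZNF507 against EV, BHLHB9 itself, where 0.182% of all genes (40 genes) passed it and 0.0682% (15 genes) passed it downwards. With the replicate block 2 members passed, BHLHB9 and GPRASP2, beside 0.55% of all genes (121 genes). At an unadjusted p under 0.05 there were 2 members, BHLHB9 and GPRASP2, beside 3.39% of all genes. Both sgZNF507 libraries were below both EV libraries in 5 members (BHLHB9, GPRASP2, ARMCX2, ARMCX5 and ARMC10), an order found in 15.3% of all tested genes. The median log2 fold change was -0.15 over the 9 members and -0.003 over all genes. Since BHLHB9 was selected on this contrast, nothing is read from these values where they include it. Over the 8 other tested members, 0 passed the threshold and 1 had an unadjusted p under 0.05 (edgeR), 4 had both sgZNF507 libraries below both EV libraries, and the median was -0.11.

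Summed over the 10 members, the level was 231 and 228 CPM in EV, 230 and 229 in sgZNF146, and 194 and 198 in sgZNF507. The sum includes BHLHB9, which was selected for its low level in sgZNF507. Without BHLHB9 it was 199 and 198 CPM in EV, 199 and 200.2 in sgZNF146, and 176 and 180 in sgZNF507. The mean of the whole sum fell by 33.5 CPM, from 229.4 in EV to 195.9, while GPRASP2 fell by 14.1 CPM and BHLHB9 fell by 12.7 CPM. Without these 2 genes the sum was 129.8 CPM in sgZNF507, 136.6 in EV and 136 in sgZNF146.

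The comparison of sgZNF146 with EV asks whether the other zinc finger disruption was accompanied by the same values. It shares the EV libraries with the sgZNF507 contrast. The log2 fold changes of all 9 tested members lay between -0.13 and 0.08, and 0 passed the threshold (edgeR, with 0 at an unadjusted p under 0.05 and 0 by DESeq2 on 6 libraries). Over all genes the share past the threshold was 0% (0 genes by edgeR and 0 by DESeq2 on 6 libraries), with 2.43% at an unadjusted p under 0.05. With the replicate block 0.15% of all genes (33 genes) and 0 members passed. BHLHB9 was at 29.7 ± 1.89 CPM in sgZNF146, a log2 fold change of -0.05 with a 95% interval of -0.25 to 0.15. GPRASP2 was at 63.8 ± 2.74 CPM, a log2 fold change of 0.04 (95% interval -0.13 to 0.20). ARMCX5 had the lowest value, -0.13 (95% interval -0.34 to 0.08), and was the 1 member with both sgZNF146 libraries below both EV libraries, an order found in 14.6% of all tested genes.

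**Figure D3:**
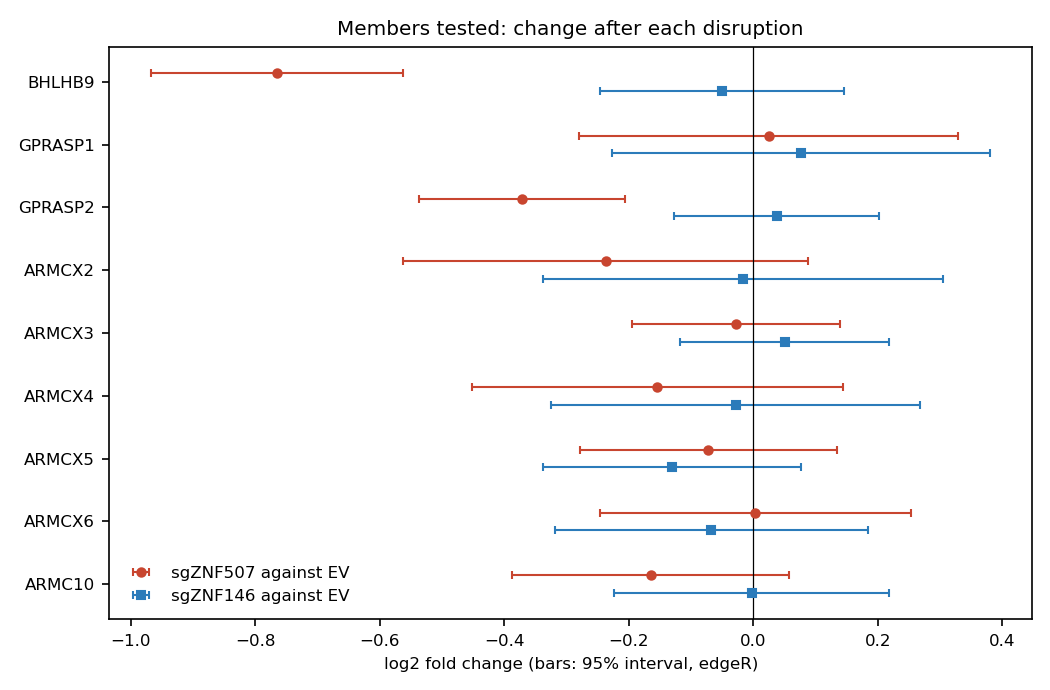
Log2 fold change of the 9 tested members (y axis) in sgZNF507 against EV (red circles) and in sgZNF146 against EV (blue squares), with 95% intervals from edgeR as bars (x axis, 0 for no change). The intervals of BHLHB9 (-0.97 to -0.56) and GPRASP2 (-0.54 to -0.21) in sgZNF507 lie below 0, and every other interval crosses 0. Both contrasts use the same EV libraries.

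The disruptions were also compared directly, which tests the difference of their effects without EV. BHLHB9 differed by a log2 fold change of -0.71 in sgZNF507 against sgZNF146 (SE 0.09, 95% interval -0.92 to -0.51), again a description because it uses the libraries BHLHB9 was selected on. GPRASP2 differed by -0.41 (SE 0.08, 95% interval -0.57 to -0.24) and did not pass the threshold (edgeR adjusted p = 0.0744), but did with the replicate block (edgeR adjusted p = 2.57e-05) and with DESeq2 on 6 libraries (DESeq2 adjusted p = 0.0209). Of the 9 tested members 1 passed, beside 0.173% of all genes (38 genes), and 2 passed with the replicate block, beside 0.891% (196 genes). In the fit without the block 2 had an unadjusted p under 0.05, beside 4.03%. Both sgZNF507 libraries were below both sgZNF146 libraries in 5 members, beside 16.5% of all genes, and above them in ARMCX5 and ARMCX6, beside 15.5%. These counts of lower members also include BHLHB9.

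**Figure D4:**
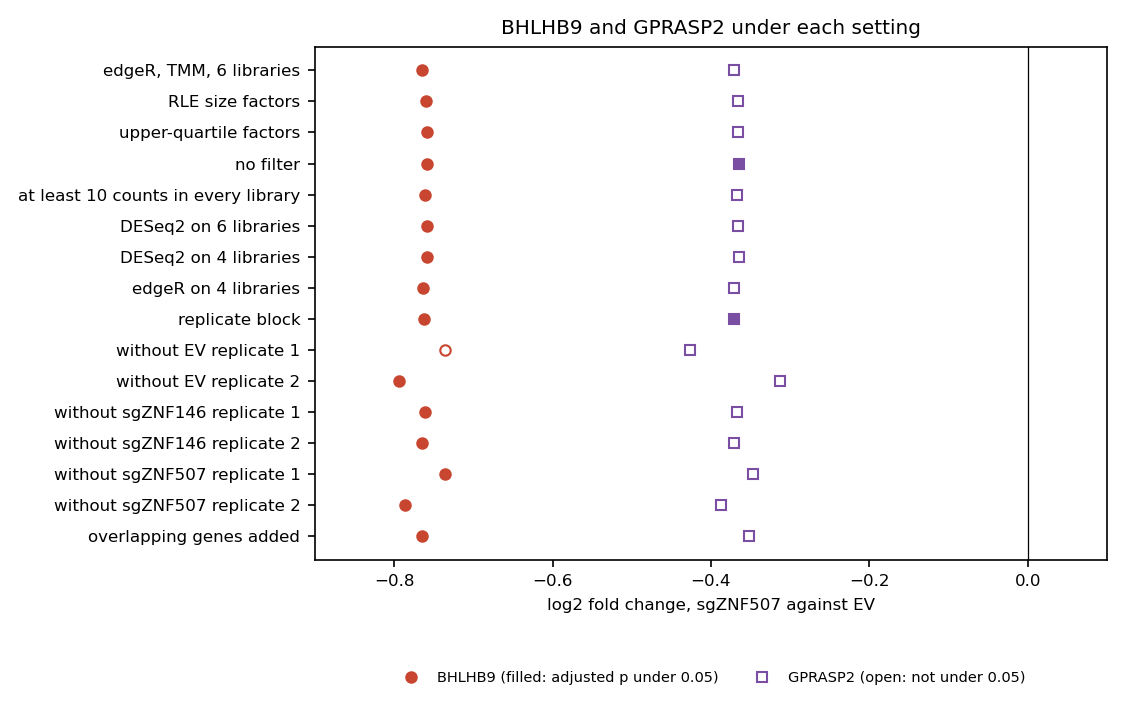
Log2 fold change of BHLHB9 (red circles) and GPRASP2 (purple squares) in sgZNF507 against EV (x axis) in the reported fit, at the top, and under 15 other settings (y axis), filled where the adjusted p was under 0.05 and open otherwise. BHLHB9 ranged from -0.79 to -0.74 and was open without EV replicate 1, and GPRASP2 ranged from -0.43 to -0.31 and was filled with no filter and with the replicate block.

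Neighbouring genes on chromosome X were examined around the family, from 500 kb before its first to 500 kb after its last X-linked member. Of 75 annotated genes without the members, 33 were tested. In sgZNF507 against EV, where 0.182% of all genes passed the threshold, 1 of the 33 did. This was GLA, the lysosomal alpha-galactosidase A, whose start lies at -1327 kb from that of BHLHB9. It was higher in sgZNF507 at 147 and 132 CPM against 85.5 and 74.7 in EV and 92.1 and 96.9 in sgZNF146 (log2 fold change 0.80, SE 0.08, edgeR adjusted p = 0.000568). The median of the 33 neighbours was -0.09, beside -0.003 over all genes. Of the 33, 22 had a log2 fold change below 0, and 3 had an unadjusted p under 0.05 (edgeR), beside 3.39% of all genes. In sgZNF146 against EV 20 of the 33 were below 0, with a median of -0.03. In sgZNF507 against sgZNF146, without EV, 16 of the 33 were below 0, with a median of 7.6e-05. BEX1, BEX4, BEX5 and TCEAL8 are among the 33 and are counted again with the BEX and TCEAL genes.

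**Figure D5:**
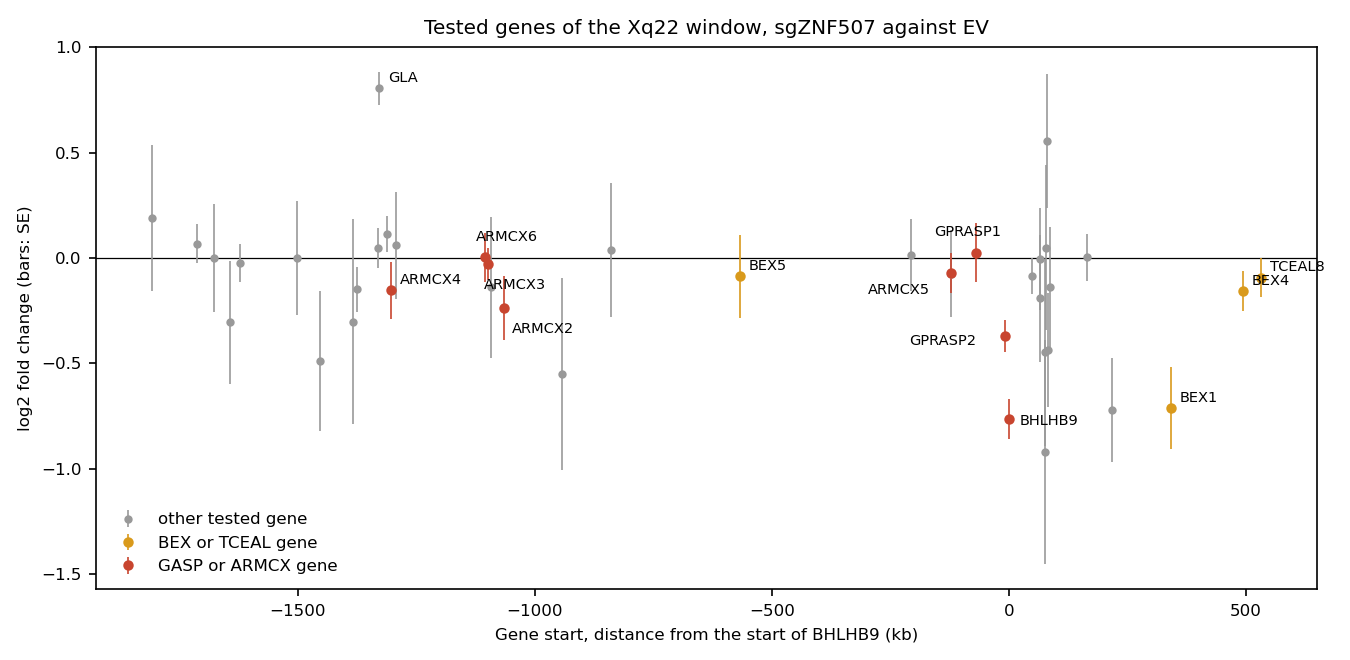
Log2 fold change in sgZNF507 against EV (y axis, bars SE) of the tested genes of the window by distance of their start from the start of BHLHB9 in kb (x axis), with GASP and ARMCX genes in red, BEX and TCEAL genes that start in the window in orange and others in grey. BHLHB9 (-0.76) and GPRASP2 (-0.37) lie side by side, GLA stands at 0.80, and many grey genes near BHLHB9 have wide errors.

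The BEX and TCEAL genes are small X-linked genes that lie among and beyond the GASP and ARMCX genes. Of 14 listed, 10 were tested and 0 passed the threshold in sgZNF507 against EV (edgeR, with 3 at an unadjusted p under 0.05, beside 3.39% of all genes). All 10 had a log2 fold change below 0, from -0.71 to -0.04 with a median of -0.16, and 8 of the 10 had both sgZNF507 libraries below both EV libraries, beside 15.3% of all genes. BEX1 was at 3.77 and 4.81 CPM in EV, 4.41 and 4.57 in sgZNF146, and 2.90 and 2.38 in sgZNF507, and TCEAL3 at 7.98 and 8.45, 9.60 and 8.69, and 6.50 and 5.83 CPM. In sgZNF507 against sgZNF146 both passed with the replicate block only, BEX1 at -0.78 (edgeR adjusted p = 0.0181) and TCEAL3 at -0.57 (edgeR adjusted p = 0.00999). In sgZNF146 against EV the list had a median of -0.04, with 0 past the threshold and 0 at an unadjusted p under 0.05 (edgeR). Over all genes those shares were 0% and 2.43%.

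Partner genes of the family's known roles were read from the same fit. In sgZNF507 against EV 0.182% of all genes passed the threshold and 3.39% had an unadjusted p under 0.05 (edgeR). Of 30 receptor sorting genes, which include ESCRT subunits, arrestins and receptor kinases, 0 passed and 0 had an unadjusted p under 0.05 (edgeR). Their log2 fold changes lay between -0.11 and 0.20 with a median of 0.01. Of 20 matched genes of mitochondrial transport and dynamics, such as the Miro GTPases and the fusion and fission factors, 0 passed and 0 had an unadjusted p under 0.05 (edgeR), with a range of -0.14 to 0.12 and a median of 0.02. In sgZNF146 against EV both lists also had 0 genes past either threshold, with medians of -0.01 and -0.02. Over all genes the shares there were 0% and 2.43%.

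Genes whose level followed that of BHLHB9 most closely were found by Pearson's r of log2 CPM over the 6 libraries, among 12352 genes with a mean of 5 CPM or more. These values are a description without a p, since 6 points in 3 groups share libraries and depth. BHLHB9 was selected on its level in sgZNF507, so this ranking favours genes that set sgZNF507 apart from the other libraries. A change of such a gene in sgZNF507 against EV is therefore not a separate result. The highest were TMEM123 (r = 0.992), RNVU1-9, a variant U1 small nuclear RNA (0.990), the Polycomb subunit EED (0.987), the kinase SIK2 (0.987) and the RNA-binding protein RBM3 (0.987). Of these, RNVU1-9 passed the threshold in sgZNF507 against EV (log2 fold change -1.94, edgeR adjusted p = 7.74e-05). Its counts are uncertain because U1 copies are nearly identical. TMEM123, EED and SIK2 all lie on chromosome 11, RNVU1-9 on chromosome 1 and RBM3 on chromosome X. The chromosome 11 genes changed by -0.15, -0.19 and -0.09 in sgZNF507 against EV without passing the threshold. The part of their shared chromosome was not tested. The lowest were ATP6V1H (r = -0.996) and ATP6V0D1 (-0.992), subunits of the vacuolar proton pump, and RBM19 (-0.995), a factor of ribosome assembly. All 3 passed the threshold upwards in sgZNF507 against EV, with log2 fold changes of 0.56 for ATP6V1H (edgeR adjusted p = 0.0177), 0.39 for ATP6V0D1 (0.0228) and 0.68 for RBM19 (0.000307). Among the members, GPRASP2 stood at rank 25 (r = 0.963), ARMCX2 at rank 397 (0.814) and ARMC10 at rank 674 (0.751), and the others were at 0.457 or below.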

How the data were processed

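RNA from 6 HEK293 libraries was sequenced as strand-specific, ribosome-depleted paired reads of 50 bp. The deposited values are raw counts per gene. Per the labels and the methods, the authors clipped reads, removed ribosomal reads, mapped to hg19 (GRCh37) with TopHat2 and counted with featureCounts. PCR duplicates count as separate reads.

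Counts were tested with edgeR 4.0.16 (R 4.3.3; filterByExpr, TMM, quasi-likelihood, all 6 libraries in one fit), with Benjamini-Hochberg adjustment over 22010 genes and a threshold of 0.05. The step was tested on simulated data. Standard errors and intervals derive from the F statistic and are approximate. Lengths and positions come from GENCODE on GRCh37, which matched 96.1% of identifiers, and the list genes MYO19, NEFL and PECAM1 were unmatched. One listed marker is not reported here. DESeq2 1.42.0 was an alternative. Figures used matplotlib under Python.

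Groups and replicate numbers come from the labels. The labels do not say what libraries of the same number share. Deviations of same-numbered libraries correlated at 0.191, 0.242 and 0.215 between the groups in these same data. The numbers were therefore used as a possible pairing in an alternative fit only, and the reported fit has no block. Blocked values stand beside results they change. Named genes are the 10 members, same-strand overlapping genes, the targeted genes, list genes past the threshold and the genes most and least like BHLHB9. BEX1 and TCEAL3 were named after their values were seen. Members and lists were chosen with earlier results of these data known.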

Additional observations from a re-analysis of the deposited data

Results flagged for a closer look

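BHLHB9 differed between the sgZNF507 and sgZNF146 effects, with a log2 fold change of -0.71 in sgZNF507 against sgZNF146 (95% interval -0.92 to -0.51). It was lower in 2 of 2 sgZNF507 libraries than in each of the 2 sgZNF146 libraries. The value is a description, since BHLHB9 was selected on the sgZNF507 libraries.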

How the results depend on the processing

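BHLHB9 kept its direction in sgZNF507 against EV under all 15 alternatives and was past the threshold in 14. Leaving out each library in turn gave -0.79 to -0.74, and without EV replicate 1 the call was lost (-0.74, edgeR adjusted p = 0.0642; range over the alternatives 6.04e-09 to 0.0642). In sgZNF507 against sgZNF146 the range was -0.78 to -0.64, and the call was lost without sgZNF146 replicate 1 (-0.64, edgeR adjusted p = 0.189). In sgZNF146 against EV it was -0.12 to 0.011, reversed without sgZNF146 replicate 2. The cause was not tested. The alternative with overlapping genes added could not probe readthrough for BHLHB9, because its overlapping gene has no count of its own. The BHLHB9 values that use sgZNF507 remain a description, since the gene was selected on those libraries.

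In sgZNF507 against EV, 2 members passed with no filter and with the replicate block, and 0 to 1 with a library left out. GPRASP2 was the added member (edgeR adjusted p = 0.00952 with no filter, range over the alternatives 0.000186 to 0.999). In sgZNF507 against sgZNF146, 2 members passed with no filter, DESeq2 on 6 libraries, DESeq2 on 4 libraries and the replicate block, and 0 to 1 with a library left out. The 0 arose without EV replicate 1 in the first contrast and without sgZNF146 replicate 1 in the second.

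Counts over all genes moved most. In sgZNF507 against EV 40 genes became 101 with no filter, 121 with the replicate block and 12 to 44 with a library left out, 12 without EV replicate 1, 22 without EV replicate 2 and 25 without sgZNF507 replicate 1. In sgZNF146 against EV 0 became 19 with no filter, 3 with DESeq2 or edgeR on 4 libraries, 33 with the block and 0 to 3 with a library left out. In sgZNF507 against sgZNF146 38 became 112 with no filter, 196 with the block and 11 to 37 with a library left out, 11 without sgZNF146 replicate 1 and 23 without sgZNF146 replicate 2. With the block 2 BEX and TCEAL genes and 2 genes of the chromosome X window passed in that contrast, and 0 to 1 of the window with a library left out (0 without either sgZNF146 replicate or sgZNF507 replicate 1). With the block these were BEX1 and TCEAL3 in the first list and GLA and BEX1 in the window, so BEX1 counts in both. The block changed no other call among the members and lists.

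Of 360 further values of single members 330 kept direction and call, 6 gained a call (GPRASP2) and 24 changed sign, at sizes near 0. With overlapping genes added GPRASP1 was at -0.0066 in sgZNF507 against EV, -0.0074 in sgZNF146 against EV and 0.00082 between the disruptions. The gene added there spans GPRASP1 but shares 0% of its exonic bases. With upper-quartile factors ARMC10 was at 0.00088 in sgZNF146 against EV. The other reversals came from leaving out a library. In sgZNF507 against EV these ranges were -0.078 to 0.12 for GPRASP1, -0.10 to 0.050 for ARMCX3, -0.37 to 0.030 for ARMCX4 and -0.086 to 0.094 for ARMCX6. In sgZNF146 against EV they were -0.013 to 0.16 for GPRASP1, -0.022 to 0.094 for GPRASP2, -0.058 to 0.021 for ARMCX2, -0.026 to 0.12 for ARMCX3, -0.16 to 0.091 for ARMCX4, -0.16 to 0.019 for ARMCX6 and -0.030 to 0.020 for ARMC10. In sgZNF507 against sgZNF146 they were -0.15 to 0.044 for GPRASP1 and -0.34 to 0.059 for ARMCX4.

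With 2 libraries a group, the changes of ARMCX2, ARMCX4 and ARMC10 in sgZNF507 against EV had intervals that crossed 0. At these depths ARMCX1 could not be measured.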
